A study of Mus musculus with 8 samples.

Results

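The interferon-stimulated antiviral genes described here are 35 genes, picked by symbol, of the 41128 gene identifiers in a deposited RNA-seq count table of mouse left ventricle. They span nucleic acid sensors, transcription factors, the IFIT and OAS families, other direct antiviral effectors, the ISG15 and ubiquitin pathway with ADP-ribosylation, and 6 further interferon-induced genes. The knockout group held 4 libraries from FVB mice of 8 to 12 weeks, labelled HOM (read here as homozygous), in which CRISPR removed regulatory element 1 (RE1) of the locus that encodes the natriuretic peptides Nppa and Nppb. The control group held 4 libraries from wild-type littermates of the same strain, age range and tissue. The comparison asks how the ventricular transcriptome differs when this enhancer is missing. The sources used here do not say from how many edited founders the knockout mice descend, and the p-values measure only the spread between these libraries. RNA came from whole left ventricle, so fewer cells of a type and less RNA per cell cannot be told apart.

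The 8 libraries held between 16778368 and 37133306 counts. The genes next to RE1 checked the labels: Nppb averaged 2983 normalized counts in wild-type hearts and 6.06 in knockout hearts, and Nppa 420 and 6.88. The left ventricular label fitted the markers, since Myh6, the ventricular and atrial myosin heavy chain gene, averaged 744706 and 750878 normalized counts while Myl7 averaged 3.24 and 11.0 and Sln 0.936 and 4.94, both atrial genes. Knockout replicates 1 and 3 resembled each other, as did 2 and 4 (mean chi-square per gene 3.14 and 3.61), more than the other knockout pairs (14.5 to 16.5), and wild-type pairs lay between 4.98 and 13.1. A normalized count is a raw count divided by the library's size factor, as deposited. The log2 fold changes below are knockout over wild-type, so a negative value is a lower level in the knockout, and each comes with the standard error (SE) of the edgeR quasi-likelihood fit. A gene passed the test when its p, adjusted by Benjamini-Hochberg over the 16551 genes tested, was below 0.05.

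Interferon-stimulated genes form the cell-intrinsic antiviral programme. RNA sensors such as RIG-I and MDA5 trigger the release of type I interferons, which bind a receptor on the same or neighbouring cells and activate JAK kinases. The complex ISGF3, which holds STAT2 and IRF9, then binds a promoter sequence called the interferon-stimulated response element. Many of its targets are also transcribed at a low tonic level without infection, in the heart as elsewhere, and encode proteins that bind, edit or degrade viral RNA.

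The proximal promoters show how this programme is written in the genome. The core of the response element, written as GAAA followed by any 2 bases and a second GAAA, was searched on both strands, reading as TTTC, any 2 bases, TTTC on the opposite one, in RefSeq windows running from 250 bases before to 50 bases after each gene start (GRCm38.p6, the assembly of the mm10 build named for the alignment). A window was present for 25 members, of which 13 held a match, or 52.0% compared with 3.99% of all 27025 genes with a window. A match describes the letters and does not show binding. The windows below are shown because Ifit3, I830012O16Rik and Sp100 had the smallest p-values among the members, while Ifit1, Isg15 and Rsad2 are archetypal interferon targets. All are printed 5′ to 3′ on the gene's strand, with matches in capitals.
Ifit3 (chr19:34583279-34583578, plus strand): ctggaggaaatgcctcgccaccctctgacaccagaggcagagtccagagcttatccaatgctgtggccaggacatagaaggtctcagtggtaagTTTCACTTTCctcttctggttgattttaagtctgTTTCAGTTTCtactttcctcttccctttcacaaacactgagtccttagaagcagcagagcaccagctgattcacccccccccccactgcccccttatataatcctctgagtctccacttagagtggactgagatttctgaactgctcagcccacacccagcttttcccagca
I830012O16Rik (chr19:34607707-34608006, plus strand): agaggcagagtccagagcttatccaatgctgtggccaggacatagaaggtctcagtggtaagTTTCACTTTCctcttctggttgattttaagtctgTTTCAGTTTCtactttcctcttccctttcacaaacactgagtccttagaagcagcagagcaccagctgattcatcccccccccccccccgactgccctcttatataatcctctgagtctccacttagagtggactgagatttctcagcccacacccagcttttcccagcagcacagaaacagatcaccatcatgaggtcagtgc
Ifit1 (chr19:34640639-34640938, plus strand): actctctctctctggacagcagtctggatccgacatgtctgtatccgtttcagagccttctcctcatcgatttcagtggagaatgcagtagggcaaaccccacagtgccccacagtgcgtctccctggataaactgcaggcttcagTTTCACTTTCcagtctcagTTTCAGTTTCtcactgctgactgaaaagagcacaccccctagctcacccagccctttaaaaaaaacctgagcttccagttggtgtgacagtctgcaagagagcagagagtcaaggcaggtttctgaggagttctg
Isg15 (chr4:156200769-156201068, minus strand): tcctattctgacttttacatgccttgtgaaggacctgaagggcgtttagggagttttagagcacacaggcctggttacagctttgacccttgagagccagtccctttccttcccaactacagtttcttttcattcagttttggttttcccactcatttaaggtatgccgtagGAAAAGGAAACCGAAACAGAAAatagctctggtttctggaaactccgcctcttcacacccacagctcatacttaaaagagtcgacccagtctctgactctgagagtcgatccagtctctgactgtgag
Rsad2 (chr12:26456403-26456702, minus strand): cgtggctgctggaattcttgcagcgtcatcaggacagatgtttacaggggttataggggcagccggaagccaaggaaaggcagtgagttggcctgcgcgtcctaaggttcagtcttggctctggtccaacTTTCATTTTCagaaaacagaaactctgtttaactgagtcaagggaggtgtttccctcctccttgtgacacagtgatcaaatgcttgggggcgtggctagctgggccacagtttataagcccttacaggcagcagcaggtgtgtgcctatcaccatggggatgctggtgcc
Sp100 (chr1:85649738-85650037, plus strand): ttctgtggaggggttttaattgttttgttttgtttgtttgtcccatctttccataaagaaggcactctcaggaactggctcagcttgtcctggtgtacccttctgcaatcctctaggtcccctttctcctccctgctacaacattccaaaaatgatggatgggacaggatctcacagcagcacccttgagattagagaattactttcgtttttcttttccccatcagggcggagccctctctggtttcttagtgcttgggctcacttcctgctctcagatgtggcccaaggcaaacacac

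Ifit3 and I830012O16Rik (RefSeq name Ifit3b) lie in the IFIT cluster of chromosome 19, and their windows were nearly copies of each other, with 259 of 274 aligned positions identical (94.5%). Both carry the same pair of matches, which begin 156 and 122 bases before the start in Ifit3 and 188 and 154 bases before it in I830012O16Rik. In Ifit1 the pair begins 104 and 85 bases before the start. Isg15 holds 3 overlapping matches, beginning 78, 72 and 66 bases upstream, and Rsad2 holds 1 at 120 bases. The Sp100 window has no match, which says only that these letters are missing from it. Windows with a match were also found for Ddx58, Ifih1, Stat2, Oas1a, Oas3, Eif2ak2, Bst2 and Ifitm3. As with Sp100, no match was found in the windows of Irf1, Irf7, Irf9, Ifit2, Oasl1, Oasl2, Trim25, Dtx3l, Ifi44, Ifi35 and Xaf1. No window was present for Dhx58, Zbp1, Oas2, Mx1, Mx2, Usp18, Parp9, Parp14, Ifi27l2a and Rtp4, so these were not searched.

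All 35 members had at least 1 count in some library, and their levels spanned a wide range. Per kilobase of merged exon, Ifitm3, a membrane protein that blocks virus entry, stood highest with 697 ± 25.7 normalized counts per kilobase in wild-type hearts and 641 ± 61.6 in knockout hearts (mean ± SD, n = 4 each). The next level was far lower and shared by several genes. Ifi27l2a, a small mitochondrial interferon-induced protein, averaged 130 ± 51.5 and 110 ± 38.7 per kilobase, the NMI-binding protein gene Ifi35 126 ± 5.50 and 119 ± 7.33, the ubiquitin ligase gene Trim25 124 ± 15.3 and 136 ± 16.2, and the transcription factor gene Irf1 120 ± 10.2 and 108 ± 11.2. The order of these 4 cannot be separated beyond their spread. At the bottom, Oas3 averaged 0.246 and 0.0611 normalized counts per kilobase. Oas3, Zbp1, Mx1 and Oasl1 did not reach the low-count filter and were not tested. Raw counts in single libraries were 0 to 3 for Oas3, 0 to 8 for Zbp1, 2 to 16 for Mx1 and 2 to 14 for Oasl1. Zbp1 senses nucleic acid in the Z form, Mx1 is a dynamin-like antiviral GTPase, and Oasl1 is an OAS-like protein. Of the 31 members tested, 29 had 10 or more raw counts in every library, and Dhx58 and Isg15 fell under 10 in knockout libraries only.

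Most interferon-stimulated genes had a lower mean level in the knockout, but no member passed the test. Of the 31 tested, 28 had a negative log2 fold change and 3 a positive one, with a median of −0.23, while 8268 of all 16551 genes were negative, with a median of 0.00. The 28 include Ddx58, whose value lay within 0.001 of 0 and turned to 0.001 with DESeq2 size factors. The adjusted test called 0 members, against a background of 0.785% of all genes (130 genes; 0.508% lower and 0.278% higher), and the smallest adjusted p among the members was 0.0540 (Ifit3, edgeR). At an unadjusted p below 0.05, 13 members were lower in the knockout and 0 higher, against 7.01% of all genes lower and 6.14% higher. The 4 wild-type and 4 knockout libraries did not overlap for 6 members, each lower in the knockout, against 3.84% of all genes lower and 3.33% higher in this way. These 6 were Ifit3, I830012O16Rik, Sp100, Oas2, Ifit1 and Bst2. The members were chosen with earlier results of these data known, so their comparison with all genes is descriptive and not a test.

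A trio of members lay close to the threshold, and some of the other analyses put them on its other side. With edgeR's robust estimate of the dispersion prior, added after the data were seen, I830012O16Rik, Sp100 and Ifit3 passed with adjusted p of 0.0332, 0.0416 and 0.0453, against 0.689% of all genes lower under that fit. DESeq2 called the same 3 genes (1.28% of all genes lower). The authors' deposited table gave them adjusted p of 0.0155, 0.0295 and 0.00464 and also passed Ifit2 at 0.0471 (1.09% of all genes lower). The submitters' notes name DESeq2 too, so that table and the DESeq2 fit here are not separate observations. With limma-voom the trio stayed short of the threshold, at adjusted p of 0.0683, 0.0563 and 0.0883. Leaving out wild-type replicate 3 gave 3 calls (I830012O16Rik, Rsad2, Sp100) and leaving out wild-type replicate 4 also gave 3 (I830012O16Rik, Ifit2, Ifit3), while each other library left out gave 0. The number of all genes past the threshold also moved widely with the library left out (range in the section on processing). These calls are therefore not read as a result about the members.

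**Figure D1:**
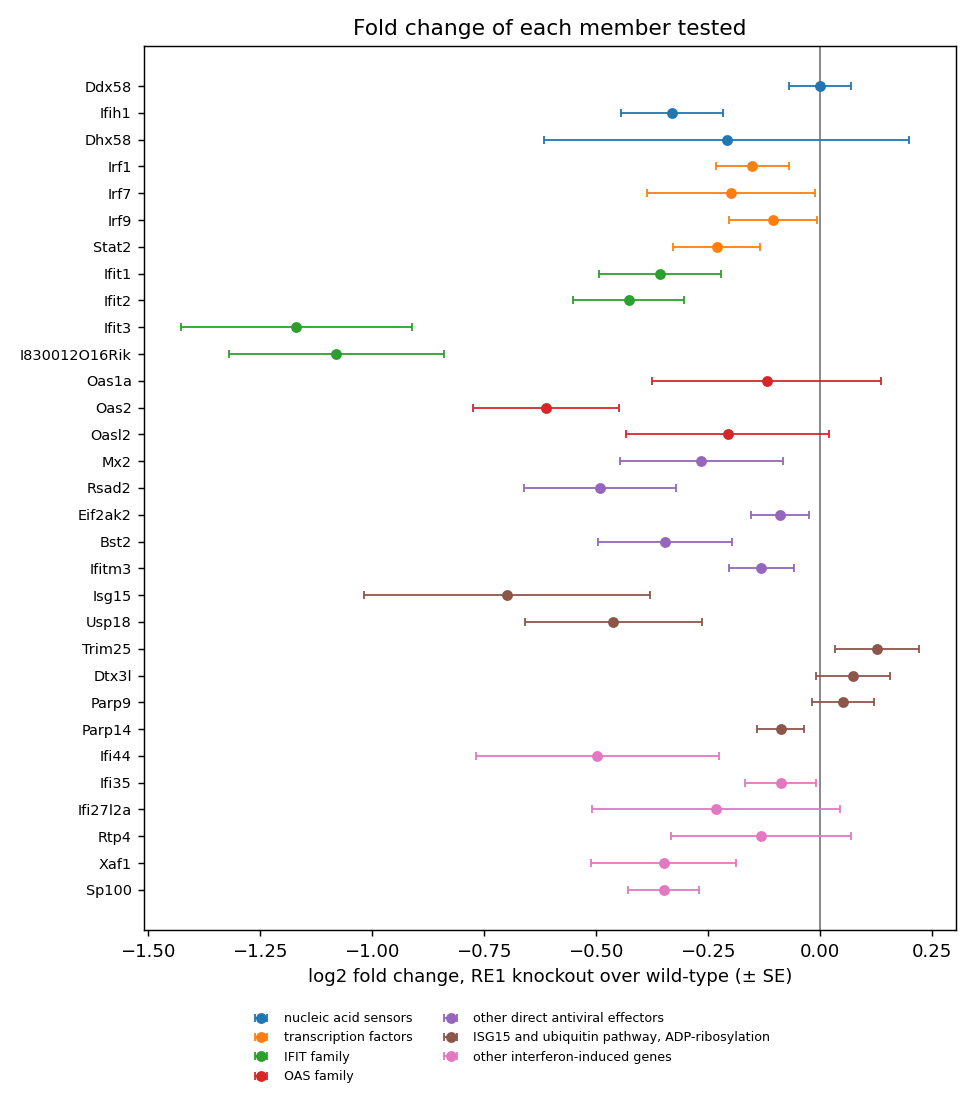
Log2 fold change of knockout over wild-type for the 31 tested members, grouped by role, with bars for the SE of the edgeR fit. Ifit3 (−1.17) and I830012O16Rik (−1.08) have the most negative values, and the 3 positive members (Trim25, Dtx3l, Parp9) all belong to the ubiquitin and ADP-ribosylation group.

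Single libraries stood out in this difference. Wild-type replicate 2 was the highest of the 8 libraries for 19 of the 31 members, whereas 15.0% of all genes were highest there. Knockout replicate 1 was the lowest for 11 members, compared with 16.2% of all genes. The median deviation of the members from their own mean was 0.12, 0.36, −0.01 and 0.05 (log2 CPM) across wild-type replicates 1 to 4 and −0.17, −0.13, −0.03 and −0.13 across knockout replicates 1 to 4, while over all genes it stayed between 0.00 and 0.01. Wild-type replicate 3 lay just above the highest knockout library. Without wild-type replicate 2, 24 of the 31 members stayed negative with a median of −0.17, and 7 were lower at an unadjusted p below 0.05 with 1 higher, against 6.46% of all genes lower in that fit.

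Clock gene levels moved with the same division of the libraries. A clock index, the mean log2 level of the Arntl-side clock genes minus that of the Dbp and Per genes, was −3.43, −3.29, −2.73 and −1.64 across wild-type replicates 1 to 4 and −1.21, −0.23, −1.13 and −0.24 across knockout replicates 1 to 4. The groups did not overlap in this index, so clock gene state and genotype cannot be told apart here. With the index as a covariate, 21 of 31 members were negative with a median of −0.08, and 0 were below an unadjusted p of 0.05 in either direction (edgeR). Over all genes the share lower at that level was 3.69% under the covariate, and the 130 genes past the adjusted threshold became 2. The log2 fold change of Ifit3 went from −1.17 to −0.17 and that of I830012O16Rik from −1.08 to −0.43, while Ifit1 went from −0.36 to −0.42. Oas2 stood at −0.31 under the covariate, Rsad2 at −0.33, Usp18 at −0.42 and Sp100 at −0.28. Other members went to near 0 or above it, with Bst2 at −0.014, Ifit2 at 0.027, Ifih1 at 0.049, Rtp4 at 0.51 and Oasl2 at 0.56. The share of counts from mitochondrial rRNA also differed among libraries. It was 10.1%, 8.51%, 10.5% and 9.67% across wild-type replicates 1 to 4. Across knockout replicates 1 to 4 it was 9.40%, 6.40%, 9.01% and 6.19%, so the low values lay in replicates 2 and 4, which resembled each other. With that share as a covariate, added after the data were seen, 29 members were negative, the median was −0.34 and 0 passed the adjusted test.

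**Figure D2:**
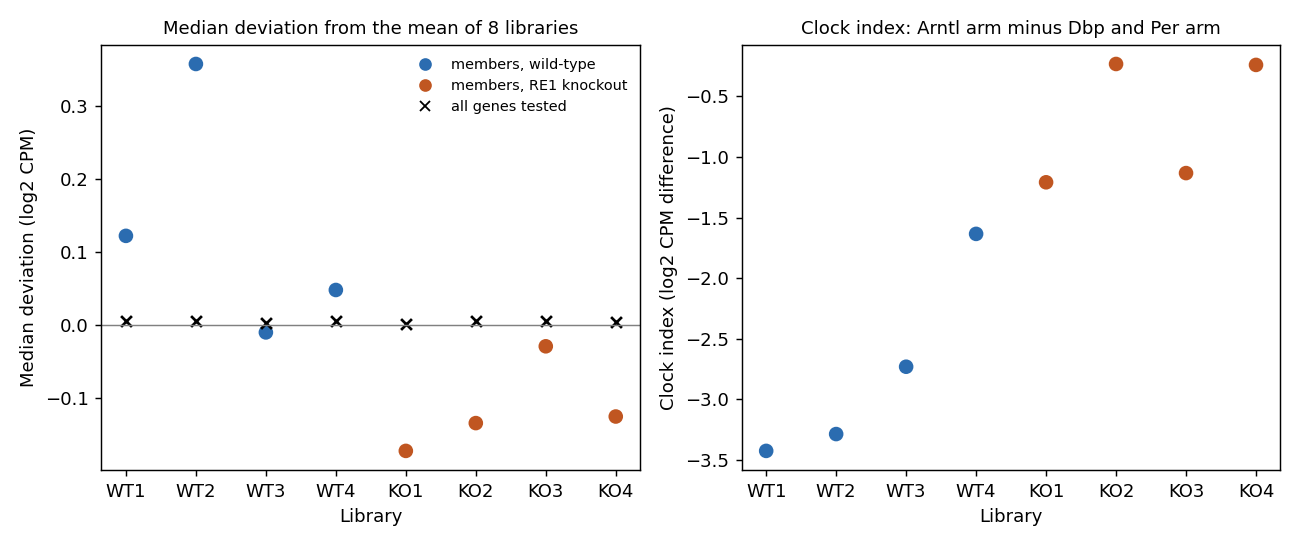
Per library, the median deviation of the 31 tested members from their 8-library mean (log2 CPM) beside that of all 16551 genes, and the clock index. Wild-type replicate 2 stands highest at 0.36, knockout replicate 1 lowest at −0.17, and the clock index separates the groups.

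In the IFIT family, Ifit1 encodes a protein that binds viral RNA lacking host cap methylation. The family had the most negative median of the roles (−0.75), which counts both Ifit3 and I830012O16Rik, a pair that shares sequence. Each of the 4 IFIT members was lower at an unadjusted p below 0.05 (edgeR), against 7.01% of all genes lower. Ifit3 (chr19:34583531-34588731, plus strand) had 83.9, 118, 70.5 and 44.4 normalized counts across wild-type replicates 1 to 4 and 25.8, 41.3, 37.6 and 33.3 across knockout replicates 1 to 4. Every wild-type library lay above every knockout library, although wild-type replicate 4 was close to the knockout range. The fitted difference was 2.25-fold (log2 −1.17, SE 0.26, edgeR adjusted p = 0.0540). Its adjusted p ranged from 0.00622 to 0.172 when each library was left out in turn.

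I830012O16Rik (chr19:34607970-34613401, plus strand), the neighbouring copy, had 75.5, 84.4, 55.9 and 42.2 normalized counts in wild-type hearts and 30.6, 37.8, 20.9 and 32.2 in knockout hearts. Again the groups did not overlap, with a 2.11-fold difference (log2 −1.08, SE 0.24, edgeR adjusted p = 0.0547). Of the 100-base stretches of Ifit3 transcripts, 31.7% also occur in Ifit3b, and 27.4% of those of I830012O16Rik occur in Ifit3. Reads could therefore have been split or dropped between the pair, and their results are not separate observations. Their summed level was 144 ± 49.0 normalized counts in wild-type hearts and 64.8 ± 10.3 in knockout hearts, a ratio of 2.21.

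Ifit2 and Ifit1 showed the same direction with smaller differences. Ifit2 (chr19:34550694-34576419, plus strand) had 294, 282, 251 and 205 normalized counts in wild-type hearts and 161, 175, 221 and 211 in knockout hearts (log2 −0.43, SE 0.12, edgeR adjusted p = 0.129). Wild-type replicate 4 lay inside the knockout range. Ifit1 (chr19:34640871-34650009, plus strand), whose levels were tight in the knockout, had 70.9, 91.2, 73.2 and 81.2 normalized counts in wild-type hearts and 62.8, 62.6, 58.4 and 63.4 in knockout hearts. The Ifit1 groups were apart (log2 −0.36, SE 0.14, edgeR adjusted p = 0.274).

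**Figure D3:**
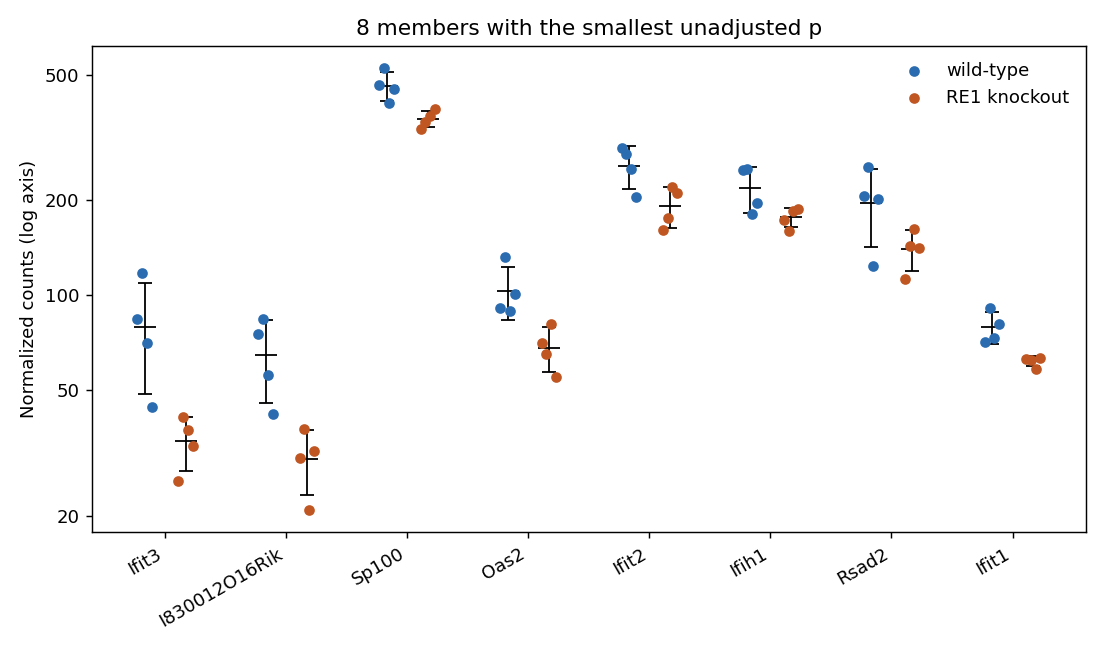
Normalized counts in each library (points, log axis) with the group mean ± SD for the 8 members with the smallest p-values. Wild-type and knockout points are separate for Ifit3, I830012O16Rik, Sp100, Oas2 and Ifit1 and overlap for Ifit2, Ifih1 and Rsad2.

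Among the sensors, Ddx58, which encodes RIG-I, had nearly equal means, with 332 ± 9.22 normalized counts in wild-type hearts and 333 ± 23.5 in knockout hearts (n = 4 each). Ifih1, which encodes MDA5, the sensor of long double-stranded RNA, had 250, 251, 181 and 196 normalized counts in wild-type hearts and 174, 160, 186 and 188 in knockout hearts. Wild-type replicate 3 fell within the knockout range (log2 −0.33, SE 0.11, edgeR adjusted p = 0.218). Dhx58, encoding the related helicase LGP2, was low and scattered, at 21.8 ± 9.51 and 18.0 ± 11.5 normalized counts.

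The factors that carry the interferon signal had log2 fold changes from −0.23 to −0.11. Stat2, a subunit of ISGF3, had 254, 301, 247 and 271 normalized counts in wild-type hearts and 259, 234, 237 and 191 in knockout hearts, with overlap through knockout replicate 1 (log2 −0.23, SE 0.10, edgeR adjusted p = 0.331). Irf9, the DNA-binding subunit of ISGF3, had 256, 316, 253 and 262 normalized counts in wild-type hearts and 212, 280, 266 and 242 in knockout hearts. Only wild-type replicate 2 lay above the whole knockout group (log2 −0.11, SE 0.10, edgeR adjusted p = 0.698). Irf7, the interferon-induced factor that amplifies interferon transcription, had 65.6, 88.3, 66.5 and 67.1 normalized counts in wild-type hearts and 37.03, 75.0, 65.8 and 64.4 in knockout hearts. Its groups overlapped, with wild-type replicate 2 high and knockout replicate 1 low (log2 −0.20, SE 0.19, edgeR adjusted p = 0.698). Irf1, which also answers to interferon gamma, had 469, 430, 528 and 476 normalized counts in wild-type hearts and 478, 454, 386 and 396 in knockout hearts, an overlapping pair of groups with an edgeR adjusted p of 0.460.

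The OAS enzymes make 2′-5′ oligoadenylates that switch on RNase L. Oas2 had 91.5, 132, 89.2 and 101 normalized counts in wild-type hearts and 70.8, 65.4, 81.4 and 55.1 in knockout hearts. The groups did not overlap, though the nearest libraries were 89.2 and 81.4 (log2 −0.61, SE 0.16, edgeR adjusted p = 0.1003). Oas1a, of which 40.9% of 100-base stretches also occur in Oas1g, averaged 36.2 ± 11.1 and 31.8 ± 8.84 normalized counts, and Oasl2 59.9 ± 22.3 and 53.2 ± 8.94, both with overlap.

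Among the other direct effectors the values ran from −0.49 to −0.09 (log2). Rsad2, which encodes viperin, a radical SAM enzyme that makes a chain-terminating nucleotide, had 206, 255, 124 and 202 normalized counts in wild-type hearts and 113, 144, 163 and 141 in knockout hearts. Wild-type replicate 3 lay inside the knockout range (log2 −0.49, SE 0.17, edgeR adjusted p = 0.218). Bst2, which encodes tetherin, a tether of budding virions, averaged 79.5 ± 7.24 and 62.7 ± 9.82 normalized counts with no overlap (edgeR adjusted p = 0.337, n = 4 each). Mx2, a dynamin-like GTPase, averaged 41.3 ± 4.96 and 35.1 ± 4.65, and Eif2ak2, the kinase PKR, 358 ± 18.2 and 337 ± 11.5. For Ifitm3, the most abundant member, the libraries held 492, 472, 450 and 476 normalized counts in wild-type hearts and 464, 409, 476 and 390 in knockout hearts. Its groups overlapped, with an edgeR adjusted p of 0.469.

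The ISG15 and ubiquitin group was split. Isg15, a ubiquitin-like modifier, had 21.4, 29.4, 15.97 and 19.5 normalized counts in wild-type hearts and 9.66, 19.95, 13.6 and 7.28 in knockout hearts, with knockout replicate 2 inside the wild-type range (log2 −0.70, SE 0.32, edgeR adjusted p = 0.365). Usp18, the protease that removes ISG15 and dampens receptor signalling, averaged 37.3 ± 5.61 and 27.2 ± 3.12 normalized counts (edgeR adjusted p = 0.333, n = 4 each). Trim25, the ligase that ubiquitinates RIG-I, was the most positive member, with 668, 617, 772 and 806 normalized counts in wild-type hearts and 864, 744, 853 and 669 in knockout hearts, which overlap (log2 0.13, SE 0.09, edgeR adjusted p = 0.602). Dtx3l and Parp9, partners in one ubiquitin ligase and ADP-ribosylation complex, averaged 473 ± 61.5 and 498 ± 29.9, and 386 ± 27.6 and 400 ± 23.5. Their exons overlap on opposite strands, and whether counting used strand was not given in the sources used. Dhx58, Irf1, Irf7, Oasl1, Eif2ak2 and Ifi35 also have exons opposite those of another gene, and Irf9 shares exonic bases with Rnf31 on the same strand. Parp14, an ADP-ribosyltransferase, averaged 942 ± 28.6 and 889 ± 48.0 normalized counts.

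Of the 6 remaining interferon-induced genes, Sp100 was closest to the threshold. Sp100, a component of PML nuclear bodies that restrict viral genomes, had 463, 526, 407 and 450 normalized counts in wild-type hearts and 338, 355, 369 and 390 in knockout hearts. The groups did not overlap, and the difference was small but tight (log2 −0.35, SE 0.08, edgeR adjusted p = 0.0575). Xaf1, a pro-apoptotic interferon target, averaged 138 ± 29.7 and 109 ± 20.6 normalized counts (edgeR adjusted p = 0.370, n = 4 each), and Ifi44 36.3 ± 12.9 and 25.8 ± 7.24. Ifi35 had 209, 221, 230 and 212 normalized counts in wild-type hearts and 196, 192, 218 and 213 in knockout hearts. Ifi27l2a varied within both groups, with 44.2, 86.3, 35.9 and 73.6 normalized counts in wild-type hearts and 37.03, 44.7, 77.2 and 44.7 in knockout hearts. Rtp4, a receptor-transporting protein gene of which 9.28% of 100-base stretches also occur in Gm45338, averaged 47.6 ± 7.56 and 45.5 ± 10.9. The groups overlapped for each of these 6 except Sp100.

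**Figure D4:**
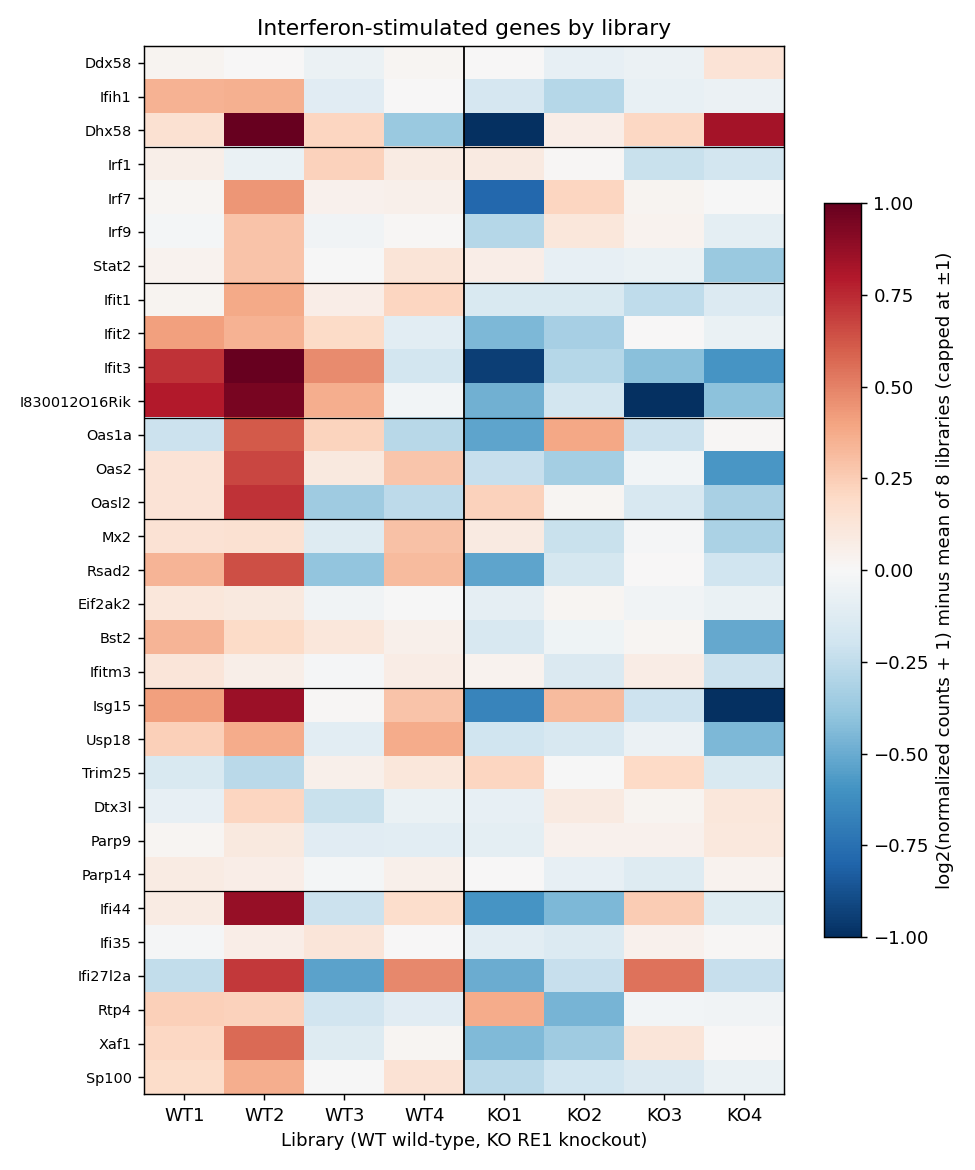
Deviation of each tested member from its mean over the 8 libraries, as log2(normalized count + 1) and capped at 1 in either direction, ordered by role. Wild-type replicate 2 is the highest library for 19 of 31 members, and Ifit3 and I830012O16Rik have the most negative log2 fold changes (−1.17 and −1.08).

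The members were then divided by whether the promoter window held the response element core. Of the 12 tested members with a match, 12 were negative, with a median of −0.34, and 8 were lower at an unadjusted p below 0.05. Of the 11 tested members with a window but no match, 9 were negative, with a median of −0.20, and 3 were lower at that level. Over all genes tested, 49.95% were negative and 7.01% were lower at that level. The class with a match includes Ddx58, whose log2 fold change rounds to 0. It also counts both Ifit3 and I830012O16Rik, whose results are not separate observations. Members without a window are in neither class. The difference between these classes was not tested.

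Upstream of the members, transcripts of the interferons themselves were nearly absent. Of 21 interferon genes, 0 reached the low-count filter, and 15 had 0 counts in all 8 libraries, including Ifnb1. The other 6 totalled 1 to 15 raw counts over the 8 libraries (Ifng 2, Ifnk 13, Ifnz 15). Receptors and JAK-STAT genes were near level, with 0 of 14 tested past the threshold and a median of −0.05. The 4 with the smallest p-values were Jak1, the kinase shared by the interferon receptors, at 4042 ± 338 and 3492 ± 181 normalized counts (edgeR adjusted p = 0.115, n = 4 each), the signalling inhibitor Socs3 at 66.8 ± 7.70 and 93.1 ± 9.58 (edgeR adjusted p = 0.138, n = 4 each), the phosphatase Ptpn6 (log2 −0.36) and the kinase Tyk2 (log2 −0.16). In the induction pathway, which links sensors to interferon transcription, 0 of 14 tested passed and the median was −0.03. Traf3, an adaptor of that pathway, averaged 592 ± 14.8 and 666 ± 20.7 normalized counts with no overlap (edgeR adjusted p = 0.152, n = 4 each), and Irf2, Mb21d1 (the DNA sensor cGAS) and Tlr3 followed with log2 fold changes of −0.11, −0.24 and 0.11.

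Among 30 other interferon-stimulated genes, 29 were tested, with 24 negative, 5 positive and a median of −0.15. Isg20, a positive one, was higher in every knockout library than in any wild-type one (log2 0.435, SE 0.19, edgeR adjusted p = 0.340). Of the 29, 1 passed the test, against 0.785% of all genes. That gene was Ifi203, of the nuclear DNA-binding IFI200 family. Ifi203 had 866, 945, 804 and 928 normalized counts in wild-type hearts and 697, 727, 683 and 715 in knockout hearts. It was lower in every knockout library than in any wild-type one, a 1.26-fold difference (log2 −0.33, SE 0.06, edgeR adjusted p = 0.0211). The adjusted p rose to 0.0644, 0.0587 and 0.0654 without wild-type replicate 1, knockout replicate 1 and knockout replicate 2, and to 0.570 with the clock index as a covariate. The annotated span of Ifi203 overlaps that of the related gene Mndal on the same strand, and overlap of their exons was not checked. Next came the GTPase gene Gbp2 (380 ± 56.5 and 281 ± 24.4 normalized counts, edgeR adjusted p = 0.0636, and 0.0438 with the robust prior, n = 4 each), the ligase gene Herc6 (181 ± 12.7 and 137 ± 14.0, edgeR adjusted p = 0.0706, n = 4 each) and Phf11d (193 ± 31.5 and 141 ± 18.4, edgeR adjusted p = 0.124, n = 4 each).

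Markers of the cells that can carry this programme were read beside it. Of 44 markers of macrophages, monocytes and neutrophils, lymphocytes and plasmacytoid dendritic cells other than members, 21 were tested and 0 passed (edgeR), with 1 lower at an unadjusted p below 0.05 (Ly6c2) and a median of −0.06. The 12 macrophage markers summed to 4824 to 6746 normalized counts in wild-type, with wild-type replicate 2 highest as for the members, and to 4825 to 5631 in knockout ventricles, and 6 of 12 were negative. Lymphocyte markers were scarce, with 1 of 11 T and NK cell markers and 1 of 7 B cell markers tested, and the neutrophil marker Ly6g had 0 counts in all 8 libraries. The 12 endothelial markers summed to 22487 to 24344 normalized counts in wild-type hearts and 21059 to 22905 in knockout hearts, with 10 negative, 0 past the threshold and a median of −0.09. The other 2 were positive, and the log2 fold changes ran from −0.31 to 0.80. At an unadjusted p below 0.05 (edgeR), 3 endothelial markers were lower and 1 higher, against 7.01% of all genes lower and 6.14% higher. Among the lower ones, Robo4 and Erg lay as close to the threshold as the trio of members (log2 −0.31 for both, edgeR adjusted p = 0.0515 and 0.0568), with no overlap between the groups. They passed with the robust prior (0.0318 and 0.0416) and with DESeq2 (0.00988 and 0.0219), and Pecam1 also had groups apart (log2 −0.12). The 8 fibroblast markers were positive, with sums of 36970 to 40896 and 42759 to 45681 normalized counts, and Gsn and Pdgfra rose (edgeR adjusted p = 0.0179 and 0.0211). Leaving out wild-type replicate 1 gave adjusted p of 0.0664 and 0.0653, leaving out knockout replicate 2 gave 0.0716 and 0.0772, and the clock covariate gave 0.704 for both. The 6 mesothelial markers were positive with a median of 1.89 and 0 past the threshold. At an unadjusted p below 0.05 (edgeR), 5 of them were higher, against 6.14% of all genes. The mesothelial sums were 104 to 391 normalized counts in wild-type and 254 to 738 in knockout hearts. The 9 cardiomyocyte markers were positive too, with 0 past the threshold. The part of these cell populations in the values of the interferon-stimulated genes was not tested.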

How the data were processed

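Libraries of left ventricular RNA (900 ng each, Truseq Stranded Total RNA kit) were sequenced as paired 125-base reads, per the labels' protocols. STAR, DESeq2 and mm10 are named in the submitters' processing notes. How reads were assigned to genes, with or without strand, and on which annotation, is not given in the sources used. The deposited raw counts are whole reads per gene. The deposited normalized counts (a signal) are the authors' raw counts divided by 1 size factor per library, which held when tested (largest relative spread 9.8e-15). The authors' deposited comparison table holds log2 fold changes, as wild-type over knockout, and p-values.

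Raw counts were fitted with edgeR 4.0.16 (R 4.3.3; TMM scaling, filterByExpr, group as the only term, two-sided quasi-likelihood F test) over all 8 libraries, and p-values were adjusted by Benjamini-Hochberg over 16551 genes. The SE is the absolute log2 fold change divided by the square root of F. The filter, scaling, clock covariate, replicate block, single libraries left out, limma 3.58.1 (voom), DESeq2 1.42.0 and a threshold of 0.1 were alternatives. The robust dispersion prior and the mitochondrial rRNA covariate were chosen after seeing the data. The edgeR code was tested on simulated counts. Exon lengths, positions and shared 100-base stretches came from GENCODE M21, and promoter windows from RefSeq (GRCm38.p6). The interferon-stimulated genes and the other lists were chosen with earlier results of these data known. Values in every library are given for the 8 members with the smallest p, the 4 with the highest level per kilobase, Irf7, Irf9, Stat2, and additionally Irf1 and Isg15, chosen after their values were seen. From each related list, up to 4 genes with the smallest p are named, and additionally Isg20, chosen after its values were seen.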

Additional observations from a re-analysis of the deposited data

Results flagged for a closer look

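In 62 groups of 4 libraries (31 members, both genotypes), the highest or lowest library was compared with the rest of its group by Dixon's ratio, the gap to the nearest library divided by the range. Chance alone takes this ratio past its critical value in about 1 group in 20, and 3 of the 62 were past it. Irf7 stood at 88.3 normalized counts in wild-type replicate 2, with the other wild-type libraries between 65.6 and 67.1 (ratio 0.932). Irf9 stood at 316 in the same library, with the others between 253 and 262 (ratio 0.854). Ifit1 stood at 58.4 in knockout replicate 3, with the other knockout libraries between 62.6 and 63.4 (ratio 0.841).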

How the results depend on the processing

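The count of members past the threshold was 0 with the design used and also with DESeq2 size factors, a filter at 1 CPM (29 members tested), limma-voom, the clock covariate and the mitochondrial rRNA covariate. It was 6 with no low-count filter, 2 with the replicate block, 3 with the robust prior, 3 with DESeq2, 3 at a threshold of 0.1 and 0 to 3 when each library was left out. The 6 that passed somewhere were I830012O16Rik, Ifit3, Sp100, Ifit2, Oas2 and Rsad2, all lower in the knockout. The 130 genes past the threshold in all became 546 with no filter, 2 with the clock covariate, 62 with the mitochondrial rRNA covariate, 296 with DESeq2, 338 at a threshold of 0.1 and 21 to 241 with single libraries left out. The 1 related gene became 6 with no filter, 2 with the replicate block, 0 with the clock covariate, 2 with the robust prior, 2 with DESeq2, 3 at a threshold of 0.1 and 0 to 2 with single libraries left out. Immune cell markers stayed at 0 in these alternatives. The cause of these differences was not tested.

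Of the 525 log2 fold changes of members under the alternatives, 482 kept their direction and their side of the threshold, 20 moved past it and 23 changed sign, in 11 members. Ddx58, near 0, turned to 0.001 with DESeq2 size factors, 0.002 with the replicate block and 0.001 with DESeq2, and ran from −0.05 to 0.032 with single libraries left out. With the clock covariate the values were 0.049 for Ifih1, 0.012 for Dhx58, 0.027 for Ifit2, 0.56 for Oasl2, 0.043 for Ifitm3, 0.51 for Rtp4 and 0.033 for Xaf1. The mitochondrial rRNA covariate gave −0.086 for Dtx3l, −0.044 for Parp9 and 0.039 for Rtp4. With single libraries left out, Dhx58 ran from −0.54 to 0.13, Oas1a from −0.34 to 0.11, Oasl2 from −0.32 to 0.063 and Rtp4 from −0.26 to 0.02.

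The replicate numbers did not pair the samples: same-numbered libraries deviated from their group means with correlations of −0.085 to 0.016, and 0 of 8 libraries matched best with their own number. The replicate block gave 146 genes in all and 2 members. Depth limits the 4 untested members and Isg15 and Dhx58 most, where a few counts set the fold change.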
